A study of Mus musculus with 9 samples.

Results

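EpiLC, epiblast-like cells, were compared across the transcriptome with mESC-2i, the naive mouse embryonic stem cells they were made from. The comparison took the 6 libraries that the labels give to these states, 3 of EpiLC and 3 of mESC-2i, out of 9 libraries in the series, and no measured value entered that choice. All 6 came from the E14 line of strain 129/Ola, so the replicates sample 1 line. The titles of the mESC-2i libraries carry the mark LT, which those of the EpiLC libraries lack and which the study's paper does not explain. The mESC-2i were kept in N2B27, a serum-free medium, with 1 µM PD0325901, which inhibits the kinase MEK, 3 µM CHIR99021, which inhibits the kinase GSK3, and 10 ng/mL LIF, a cytokine that signals through STAT3. The EpiLC were grown on human plasma fibronectin in N2B27 with 20 ng/mL activin A, 12 ng/mL bFGF and 1% KSR, a serum replacement. Every agent differed between the states at once, so the effects of single agents cannot be told apart, and the length of the EpiLC culture was not given in the sources used here.

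Naive stem cells correspond to the epiblast of the blastocyst before implantation and rest on a set of transcription factors that LIF and Wnt signalling sustain. EpiLC correspond to the epiblast shortly after implantation, which loses that set, turns on the DNA methyltransferases and becomes competent to form the germ layers and the germ line. The step is accompanied in the embryo by a change from a compact cell mass to a polarised epithelium that lies on a basement membrane.

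Gene counts came from poly-A selected RNA read as single 50 bp reads, and their totals ran from 7187576 to 11523850 per library in mESC-2i and from 8552600 to 10651090 in EpiLC. Pearson's r of log2 CPM (counts scaled to a common library size) was 0.979 to 0.992 between replicates and 0.766 to 0.804 between the groups. Replicate 3 of mESC-2i stood apart from the others of its group, with a chi-square per degree of freedom of 12.6 and 28.3 against them where the other pairs of replicates gave 2.18 to 4.53, and it held the lowest share of ribosomal protein counts, 4.69%, against 5.85% and 6.75%. The labels call the replicates biological without saying what was repeated, so p-values measure the spread between these libraries.

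Of 38293 genes in the table, 14473 had no count in these libraries and 15378 were tested. A filter left out genes with low counts in both states, so a gene near 0 in 1 state was tested only if it was higher in the other. A gene is called here when edgeR's quasi-likelihood test gave a Benjamini-Hochberg adjusted p under 0.05 and a log2 fold change over 0.5 in size, and by this rule 10732 genes, 69.8%, differed between EpiLC and mESC-2i. Of these 4922 (32.0% of the genes tested) were higher in EpiLC and 5810 (37.8%) were lower. Without replicate 3 of mESC-2i the count was 10799, with 5114 higher and 5685 lower. The shares over all genes, 32.0% higher and 37.8% lower, are the general background for the list counts below. A split near them sets no list apart. Among protein-coding genes the shares varied with gene length. They went from 59.9% higher and 18.2% lower in the shortest eighth to 11.5% and 58.5% in the longest. For lists of short or long genes the general background is therefore not a matched one. Large changes lay more on the lower side, with 2005 genes lower by more than 2 on the log2 scale and 1034 higher by as much. In addition, 83 genes had no read in any EpiLC library while holding more than 3 in each mESC-2i library, and 15 genes showed the reverse. The groups did not overlap in CPM for 12577 genes, 81.8%, so a lack of overlap is the ordinary outcome here and sets no gene apart.

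CPM were scaled by TMM, a method that takes most genes to be unchanged, and the median log2 fold change was then -0.11. Scaling to total counts alone moved it to -0.45, giving 3711 genes higher and 7280 lower, so that 33.8% of called genes were higher where TMM gave 45.9%. No gene changed from higher to lower between the scalings, but 1211 genes called higher with TMM were not called with total counts. Among genes named below 6 lost their call with total counts, Bambi, Ifitm2, Kat8, Lamb1, Socs2 and mt-Nd4. Of the 192 genes named with a call the groups overlapped in CPM in 1, Taf7l. All fold changes are relative to the other mRNA of the library. Whether the counting used strand is not stated, so genes that share 10% or more of their exonic bases with another gene are uncertain, and that share is given where they are named. In bulk RNA a smaller number of cells with a transcript and less of it per cell cannot be told apart.

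The labels were checked on markers of both states. Esrrb, a naive factor, was read at 676, 657 and 671 CPM in mESC-2i and at 12.4, 14.2 and 16.0 CPM in EpiLC. Pou3f1, a factor of the formative epiblast, was read at 2.22, 2.28 and 1.69 CPM in mESC-2i and at 289, 282 and 286 CPM in EpiLC. Every library carried the pattern of its label. Prdm14, a naive factor that also directs the germ line, fell from 47.7, 47.7 and 50.5 CPM to counts of at most 3 per EpiLC library, a 246-fold difference with a 95% counting interval of 105 to 758. Pou5f1, which both states require, was not called, at 856, 1062 and 669 CPM against 954, 994 and 1001 CPM, and shares 14% of its exonic bases with an antisense gene. Utf1, a chromatin-bound pluripotency factor, rose from 30.6, 28.3 and 23.8 CPM to 818, 937 and 884 CPM (log2 fold change 5.00 ± 0.132 (SE), edgeR adjusted p = 7.72e-10). The general pluripotency list of 13 genes thus held members on both sides, 8 higher and 2 lower, with a median of 0.96.

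Among signalling genes, those of the LIF and STAT3 pathway were mostly lower in EpiLC, 12 of 16 tested against 2 higher, with a median log2 fold change of -1.81. Socs3, the feedback inhibitor that STAT3 induces, was read at 114, 129 and 109 CPM in mESC-2i and at 3.64, 3.52 and 2.94 CPM in EpiLC. It fell by 5.11 on the log2 scale (SE 0.136, edgeR adjusted p = 8.25e-10), and the EpiLC values lay within 1 CPM of each other. The receptor subunits Lifr and Il6st and the factor Stat3 itself, named here after their values were seen, had log2 fold changes of -2.89, -3.09 and -3.78. Against this direction stood Pim2, a survival kinase at chrX:7878262-7883432 that is known as a target of STAT factors. Pim2 was read at 12.2, 13.2 and 12.0 CPM in mESC-2i and at 802, 840 and 781 CPM in EpiLC (log2 fold change 6.01 ± 0.114 (SE), edgeR adjusted p = 4.14e-10), and its relatives Pim1 and Pim3, also named afterwards, had log2 fold changes of -3.79 and -1.75. Pim1 shares 14.52% of its exonic bases with an antisense gene and is uncertain to that extent. The other riser, Socs2, went from 67.4 to 70.9 CPM in mESC-2i to 104 to 117 CPM in EpiLC and rose by 0.67 on the log2 scale.

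**Figure D1:**
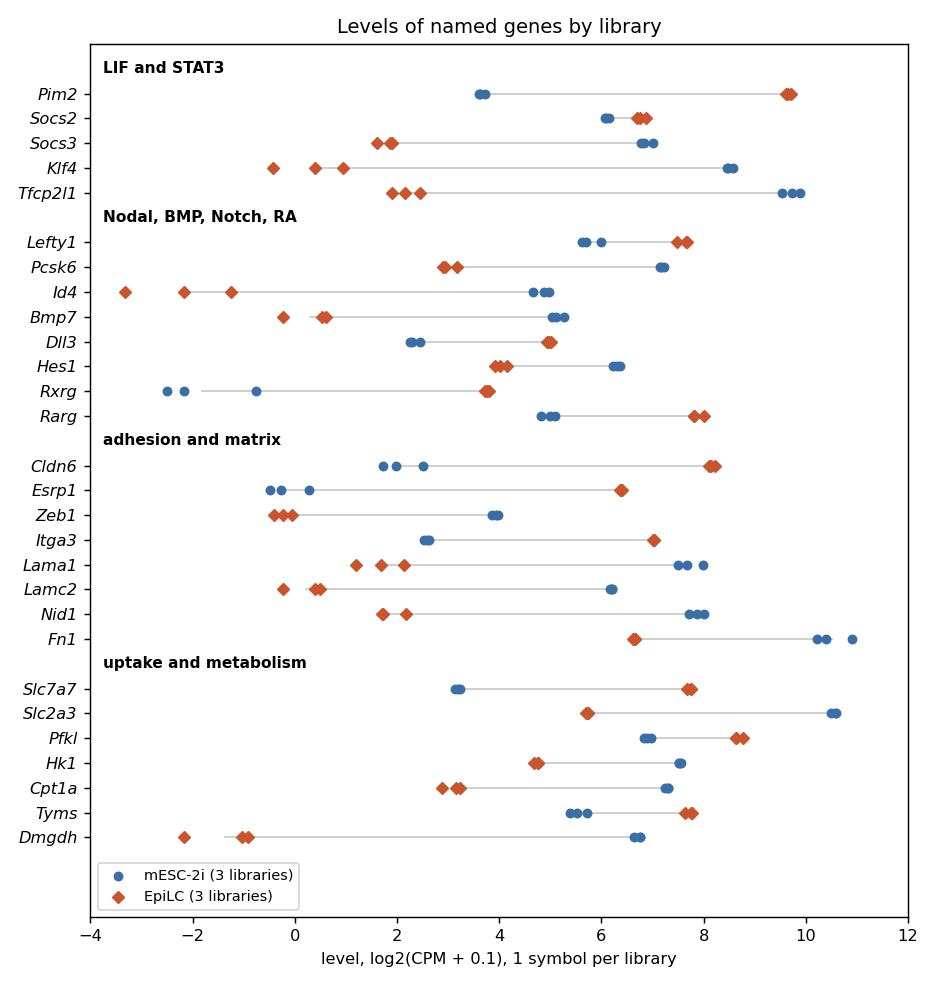
Level of each named gene in each library as log2(CPM + 0.1), with circles for the 3 mESC-2i libraries and diamonds for the 3 EpiLC libraries and a grey line between the group means. Pim2 lay at 12.0 to 13.2 CPM in mESC-2i and at 781 to 840 CPM in EpiLC, against the direction of Socs3, Klf4 and Tfcp2l1, and in no gene drawn did the groups overlap.

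The Wnt target list fell, 12 of 16 lower and 2 higher with a median of -3.11. Of 18 counted, 5 held at most 3 counts in every EpiLC library and could be tested only through mESC-2i. Sp5, a transcription factor that Wnt signalling induces directly, was read at 145, 150 and 135 CPM in mESC-2i and at 0.130, 0.321 and 0.122 CPM in EpiLC. These are counts of at most 3 per EpiLC library, and the ratio was 722 with a 95% counting interval of 309 to 2224. T, the brachyury factor of the primitive streak, went from 77.6, 78.9 and 97.1 CPM to 1.30, 1.07 and 1.59 CPM. Lef1, a DNA-binding partner of beta-catenin, rose from 19, 19.7 and 24.6 CPM to 103, 96.8 and 122 CPM (log2 fold change 2.34 ± 0.131 (SE), edgeR adjusted p = 8.83e-08), although 14% of its exonic bases also lie in an antisense gene. Ccnd1, the cyclin often used as a Wnt readout, was not called, with 225 to 243 CPM in mESC-2i and 213 to 228 CPM in EpiLC, and shares 23% of its exonic bases with LTO1.

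EpiLC medium contains activin A, and among 17 genes of the Nodal and activin pathway 4 were higher and 7 lower with a median of -0.28. Feedback genes were among the higher ones. Lefty1, a secreted antagonist of Nodal, rose from 51.8, 63.2 and 49.3 CPM to 205, 200 and 178 CPM. Skil, a repressor of SMAD factors, rose from 28.6, 22.5 and 32.8 CPM to 103, 86.4 and 114 CPM. The proteases that cut the Nodal precursor went the other way. Pcsk6 (PACE4) was read at 143, 141 and 149 CPM in mESC-2i and at 7.42, 8.97 and 7.59 CPM in EpiLC (log2 fold change -4.17 ± 0.112 (SE), edgeR adjusted p = 8.69e-10), and Furin fell by 2.00. Smad3, which carries the signal to the nucleus, fell by 2.17, from 42.3 to 52.4 CPM to 8.23 to 12.1 CPM. Tdgf1 (Cripto), the co-receptor of Nodal, was not called, with 398 to 451 CPM in mESC-2i and 422 to 451 CPM in EpiLC.

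Of 17 BMP and Id genes 12 were lower and 2 higher (median -0.88). With offsets for gene length and GC content, described with the length trend, 9 were lower and 2 higher (median -0.71). Id4, an inhibitor of basic helix-loop-helix factors that BMP induces, was read at 29.2, 25.2 and 31.4 CPM in mESC-2i and at 0, 0.321 and 0.122 CPM in EpiLC, a 180-fold ratio with a 95% counting interval of 70.0 to 662. The ligand Bmp7 went from 32.8, 34.7 and 38.4 CPM to 1.43, 0.748 and 1.35 CPM, and Smad9, which transmits BMP signals, fell by 3.61. Bambi, a decoy receptor, rose from 6.29 to 8.71 CPM to 12.1 to 12.5 CPM. The type I receptor Bmpr1a, at 63.0 to 68.8 CPM and 43.4 to 50.0 CPM, had a log2 fold change of -0.49, just inside the size threshold, and was not called, though without replicate 3 of EpiLC it was, at -0.53 on the log2 scale.

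The FGF list was split, with 3 genes higher and 6 lower of 14. Fgf8, a ligand of the streak and organisers, rose from 2.96, 3.91 and 3.77 CPM to 28.2, 31.1 and 27.2 CPM, and Fgf15 rose by 1.80 with 26% of its exonic bases shared with antisense genes. The receptor Fgfr1 was not called, at 54.8 to 59.9 CPM and 59.3 to 64.9 CPM, but was called higher with the length and GC offsets (0.56), with which 5 genes of the list were higher and 6 lower. The docking protein Frs2, which joins the receptor to the ERK cascade, fell by 1.95. Genes of ERK feedback were mostly higher, 10 of 18 against 3 lower. Dusp4, a phosphatase of ERK, was read at 3.45, 3.66 and 2.70 CPM in mESC-2i and at 62.5, 62.3 and 62.2 CPM in EpiLC. Spry4 rose by 4.37 while its relative Spry2 fell by 1.35, and Etv5, an ETS factor of the same feedback, was not called at 297 to 317 CPM and 276 to 305 CPM.

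In the Notch pathway 12 of 19 genes were lower and 6 higher (median -0.99). The receptors differed in direction. Notch1 was read at 59.0, 48.6 and 71.7 CPM in mESC-2i and at 14.4, 14.6 and 17.6 CPM in EpiLC, and Notch4 fell by 3.24, whereas Notch3 rose from 62.7, 63.7 and 86.8 CPM to 142, 154 and 146 CPM. The target Hes1 fell by 2.27. Dll3, a ligand that acts on Notch within the same cell, rose from 4.68, 4.80 and 5.39 CPM to 32.0, 30.7 and 31.5 CPM (log2 fold change 2.65 ± 0.128 (SE), edgeR adjusted p = 3.04e-08), and Mfng, a glycosyltransferase that modifies Notch, rose by 2.15.

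Retinoic acid genes were even in count, 5 higher and 5 lower of 15, and the receptors differed in direction. Rarg was read at 31.7, 28.0 and 33.9 CPM in mESC-2i and at 225, 225 and 258 CPM in EpiLC (log2 fold change 2.92 ± 0.111 (SE), edgeR adjusted p = 6.57e-09). Rxrg rose from 0.123, 0.488 and 0.0770 CPM to 13.1, 13.8 and 13.5 CPM, Rxra fell by 0.92 and Rara was not called. The binding proteins went in opposite directions, with log2 fold changes of 2.48 for Crabp2 and -1.25 for Crabp1.

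Families of transcription factors moved in different ways. The T-box family held 8 lower genes and 1 higher of 10 tested, the KLF family 9 lower and 1 higher of 13, and all 3 GATA genes tested were lower. Of 17 T-box genes counted 9, of 17 KLF genes 1 and of 6 GATA genes 2 held at most 3 counts in every EpiLC library. Such genes could be tested only through mESC-2i. The GATA genes were low in both states, with mean sums of 12.4 CPM in mESC-2i and 3.01 CPM in EpiLC. Tbx3, a T-box factor of the naive network, was read at 221, 198 and 237 CPM in mESC-2i and at 1.56, 1.28 and 1.22 CPM in EpiLC (log2 fold change -7.33 ± 0.152 (SE), edgeR adjusted p = 4.14e-10). Klf5 and Klf2, partners of Klf4, fell by 5.20 and 4.41, and Klf7 rose by 1.30 with 39% of its exonic bases in overlapping antisense genes. The SOX family was even, 5 higher and 5 lower of 11. Sox3 rose from 5.05, 5.29 and 3.77 CPM to 58.9, 61.9 and 55.0 CPM while Sox2, of the same subgroup, went from 475, 446 and 468 CPM to 56.9, 56.7 and 67.3 CPM. The summed CPM of the SOX family went from 668.3 ± 16.6 to 380.0 ± 18.7 (SD, n = 3). Among the SALL factors Sall2 rose from 9.61, 11.8 and 9.86 CPM to 100, 96.4 and 105 CPM, Sall3 fell by 3.42 and Sall4 was not called at 172 to 194 CPM and 185 to 193 CPM.

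HOX genes, the homeobox genes that pattern the body axis, were read at low levels in mESC-2i and were mostly lower in EpiLC. Of 21 tested, 20 were lower and 1 higher, with a median of -5.19, or -4.91 when genes at 0 in EpiLC are set to the bound that 3 counts per library gives. Their summed level over 38 genes in the table was 116, 111 and 123 CPM in mESC-2i and 5.85, 4.81 and 4.53 CPM in EpiLC. In EpiLC 33 of the 38 held at most 3 counts in every library and 12 held none. Such genes could pass the filter only through mESC-2i, so the count of lower genes and the median were largely set by the filter. The sum over the 38 genes does not depend on it. Hoxc13 was the highest in mESC-2i at 22.8, 21.4 and 20.9 CPM and lay at 0.130, 0.214 and 0.122 CPM in EpiLC, a ratio of 136 with a 95% counting interval of 52.8 to 500. Hoxb9 fell from 17, 16.9 and 22.1 CPM by 6.23 on the log2 scale. Hoxc12 had no read in EpiLC and was at least 26.5-fold lower, the bound being 3 counts per library.

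Markers of later lineages, taken as lists of what other cell types such cultures could hold, were lower in EpiLC in summed level in every list. The neuroectoderm list of 16 summed to 239.5 to 261.4 CPM in mESC-2i and 66.87 to 70.77 CPM in EpiLC, and 12 of its 13 tested genes were lower, with a median of -3.08 (-2.87 with genes at 0 set to their bound). Of the 16, 8 held at most 3 counts in every EpiLC library and could be tested only through mESC-2i. Sox1, an early neural factor, went from 22.4, 25.5 and 23.5 CPM to 1.30, 0.962 and 1.35 CPM, and Pax3, Neurog2 and Six3 had no read in EpiLC. The primitive streak and mesoderm list summed to 134.1 to 154.4 CPM and 50.81 to 55.23 CPM, with 3 genes higher and 5 lower of 10, and Mesp1, Hand1 and Kdr held at most 3 counts in each EpiLC library. T, whose levels are given with the Wnt targets, made up most of that mESC-2i sum and most of its fall. The primitive endoderm list summed to 237.2 to 314.3 CPM and 26.54 to 30.02 CPM, with 7 of 9 lower. Lama1, whose levels are given with the matrix genes, made up most of that mESC-2i sum and most of its fall. Sox7, Pdgfra and Hnf4a held at most 3 counts in every EpiLC library. The definitive endoderm list summed to 321.6 to 461.6 CPM and 160.9 to 180.0 CPM, with 5 of 6 lower. Trh made up most of the last sum, at 363, 426 and 290 CPM against 162, 173 and 155 CPM. The trophectoderm list summed to 168.1 to 182.2 CPM and 100.8 to 105.8 CPM. Within it Krt18, an epithelial keratin, rose from 9.49, 12.8 and 10.6 CPM to 53.7, 56.0 and 59.5 CPM while Tfap2c fell by 5.85 and Cdx2 by 5.72. The 10 primordial germ cell markers, 3 of them higher and 6 lower, summed to 550.3 to 601.9 CPM and 185.3 to 194.9 CPM. Most of that fall was in Kit, a receptor kinase of germ cells, which went from 251, 235 and 297 CPM to 2.99, 2.88 and 3.18 CPM. Fibroblast and feeder markers were low in both states, at 60.61 to 64.58 CPM and 50.45 to 54.16 CPM.

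**Figure D2:**
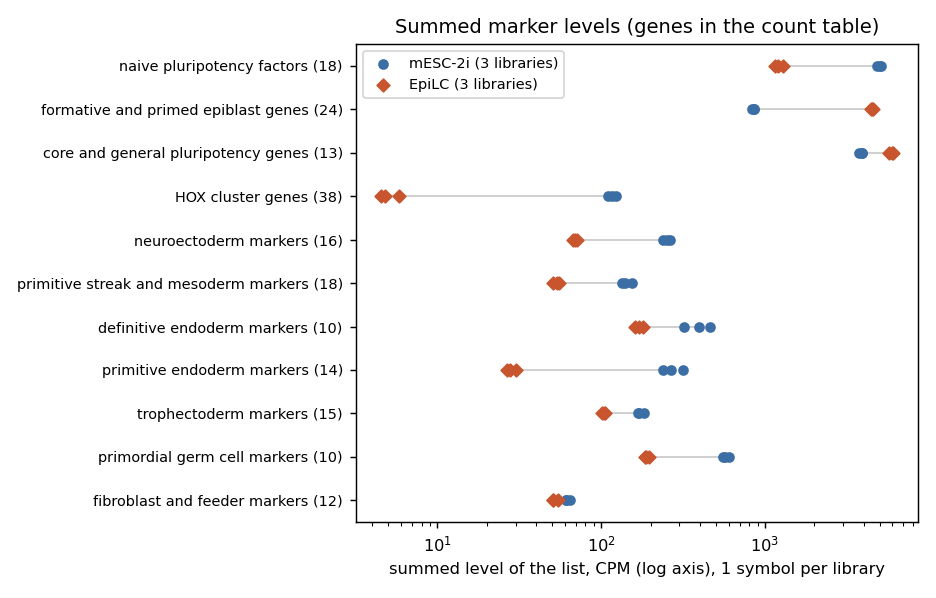
Summed CPM of each list in each library on a log axis, with the number of its genes in the count table in brackets, circles for the 3 mESC-2i libraries and diamonds for the 3 EpiLC libraries. The HOX sum lay at 111 to 123 CPM in mESC-2i and at 4.53 to 5.85 CPM in EpiLC, and each of the 7 lineage lists drawn below it was lower in all EpiLC libraries than in all mESC-2i libraries.

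Chromatin regulators changed within each class rather than as classes. Of 17 genes of DNA methylation and demethylation 5 were higher and 7 lower. The de novo cofactor Dnmt3l rose from 29.0, 30.4 and 28.5 CPM to 180, 187 and 179 CPM, while Uhrf1, which recruits the maintenance enzyme, was not called at 414 to 432 CPM and 428 to 440 CPM. Tet2, which oxidises methylcytosine, was read at 48.8, 39.2 and 87.4 CPM in mESC-2i and at 2.08, 1.6 and 1.1 CPM in EpiLC (log2 fold change -5.20 ± 0.373 (SE), edgeR adjusted p = 4.74e-07). Zbtb38, a reader of methylated DNA, fell by 3.50.

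Of 33 Polycomb genes 6 were higher and 13 lower with a median of -0.41, which offsets for gene length and GC content, described with the length trend, moved to 0.02. Suz12, a core subunit of the complex that methylates lysine 27 of histone H3, was read at 238, 230 and 245 CPM in mESC-2i and at 48.7, 45.4 and 55.0 CPM in EpiLC (log2 fold change -2.26 ± 0.101 (SE), edgeR adjusted p = 1.82e-08). Cbx6 and Phc1, of the other complex, rose by 1.42 and 1.16, Phc1 from 169, 154 and 200 CPM to 393, 406 and 371 CPM. Histone acetyltransferases and deacetylases were more often lower, 14 of 29 against 4 higher. Kat6b fell from 198, 170 and 310 CPM to 23.9, 20.9 and 24.5 CPM, and Crebbp, which encodes the coactivator CBP, fell from 28.8, 22.8 and 45.1 CPM to 2.47, 3.52 and 5.39 CPM. Kat8, which acetylates histone H4, rose from 26.9, 29.2 and 28.0 CPM to 43.2, 45.9 and 40.5 CPM. The median of this list was -0.50, and -0.19 with the length and GC offsets.

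Of 26 enzymes of H3K4 and H3K9 methylation 6 were higher and 11 lower. The lower ones included Kdm3a, a demethylase of H3K9 that fell from 238, 219 and 263 CPM to 40.2, 42.7 and 44.2 CPM. The methyltransferase Ehmt2 (G9a) rose from 73.1, 73.5 and 94 CPM to 146, 166 and 161 CPM, and Suv39h1 rose by 1.88 with 15% of its exonic bases in an antisense gene. With the offsets the list held 10 higher and 8 lower, and its median changed sign from -0.40 to 0.34.

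Germline genes that DNA methylation silences in somatic cells were split, 10 higher and 5 lower of 21. Mael, a factor of the piRNA pathway, was read at 2.10, 2.04 and 1.62 CPM in mESC-2i and at 38.9, 41.7 and 36.6 CPM in EpiLC (log2 fold change 4.36 ± 0.154 (SE), edgeR adjusted p = 4.36e-09). Dazl, an RNA-binding protein of germ cells, went the other way from 102, 88.2 and 94 CPM to 11.7, 12.2 and 9.67 CPM. The E-box CACGTG, which reads the same on both strands and is the sequence that MAX and its partner MGA bind in germline promoters, was sought from 250 bases before to 50 after the RefSeq start of each gene. It was found in 12 of 18 listed genes with a promoter in the RefSeq table, 66.7%, and in 2187 of all 27025 genes, 8.09%. Of the listed genes with it, 7 of 9 higher genes, 1 of 4 lower genes and 3 of 4 genes not called held the letters. The 100 bases before the start of 4 genes that were higher, 1 not called (Hormad1) and 1 lower (Taf7l) are shown 5′ to 3′ so that the place of the E-box, in capitals, can be compared. They are RefSeq sequences of build GRCm38.p6 and were chosen after the calls were seen.
Ddx4, chr13:112652311-112652410, minus strand: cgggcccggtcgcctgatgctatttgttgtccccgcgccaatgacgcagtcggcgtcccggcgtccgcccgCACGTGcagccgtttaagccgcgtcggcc
Sycp3, chr10:88459487-88459586, plus strand: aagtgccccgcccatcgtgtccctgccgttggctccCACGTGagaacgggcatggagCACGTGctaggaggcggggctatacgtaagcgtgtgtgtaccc
Slc25a31, chr3:40708771-40708870, plus strand: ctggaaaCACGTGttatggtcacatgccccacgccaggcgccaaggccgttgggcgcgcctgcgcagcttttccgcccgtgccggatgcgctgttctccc
Tdrd1, chr19:56826109-56826208, plus strand: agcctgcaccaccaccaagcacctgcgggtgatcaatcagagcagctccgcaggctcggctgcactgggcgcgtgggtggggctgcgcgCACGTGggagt
Hormad1, chr3:95559577-95559676, plus strand: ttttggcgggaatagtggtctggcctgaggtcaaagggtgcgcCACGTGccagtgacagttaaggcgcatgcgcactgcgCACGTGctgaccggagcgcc
Taf7l, chrX:134476491-134476590, minus strand: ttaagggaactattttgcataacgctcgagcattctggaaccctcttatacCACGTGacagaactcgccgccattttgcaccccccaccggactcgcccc
The E-box began 11 bases before the start in Tdrd1 and 93 bases before it in Slc25a31, and Sycp3 and Hormad1 each held 2. Tdrd1 and Hormad1 have further RefSeq promoters that are not shown. The call of Taf7l, a testis form of a TFIID subunit with a log2 fold change of -0.73, was lost without replicate 1 or 2 of EpiLC or replicate 2 of mESC-2i (-0.64, -0.48 and -0.54). Sycp3, a protein of the synaptonemal complex, rose by 2.12 on the log2 scale, but 52% of its exonic bases also lie in the antisense gene Chpt1. Mga, a T-box family member that binds E-boxes, fell from 145, 122 and 220 CPM to 62.7, 65.4 and 67.7 CPM. A match of letters is a description and not a binding site.

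Clustered and X-linked families known from germ cells and placenta were lower, with exceptions. Of 17 RHOX homeobox genes tested 15 were lower and 1 higher, and that 1, Rhox5, rose from 72.7, 79.7 and 71.9 CPM to 270, 289 and 290 CPM, so that the summed level of the cluster rose from 143.2 to 166.5 CPM to 287.4 to 312.0 CPM while its median was -2.24. MAGE genes were lower in 7 of 8, among them Maged1 from 170, 181 and 174 CPM to 110, 112 and 102 CPM. Of 34 RHOX genes counted 15, and of 20 MAGE genes 13, held at most 3 counts in every EpiLC library. Any of them that were tested could be so only through mESC-2i. PRAME-like genes were lower in 5 of 6 tested, with a median of -6.05, or -2.85 with genes at 0 set to their bound. Of 17 PRAME-like genes counted, 15 held at most 3 counts in every EpiLC library. These could be tested only through mESC-2i, so the count was largely set by the filter. Pramef17 went from 18.1, 18.7 and 18.2 CPM to no read, at least 51.1-fold lower. In these families near-identical copies share reads, and the sources used here do not say how such reads were counted. Of 14 counted genes of the 2-cell-like state, 4 passed the filter on low counts, and the 3 called were the copies Zscan4c, Zscan4d and Zscan4f, which were higher in EpiLC at means of 3.66, 3.20 and 3.77 CPM.

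Imprinted genes, which are read from the allele of 1 parent, were balanced at 10 higher and 12 lower of 26. Plagl1, a growth-suppressing zinc finger factor, was read at 100, 67.9 and 129 CPM in mESC-2i and at 1.04, 0.534 and 1.1 CPM in EpiLC (log2 fold change -6.80 ± 0.330 (SE), edgeR adjusted p = 3.22e-08). Igf2r, the receptor that clears IGF2, fell by 2.07, and Igf2 itself by 4.79 although 63% of its exonic bases are shared with another gene on its strand. Cdkn1c, an inhibitor of cyclin-dependent kinases, rose from 17.2, 13.8 and 9.70 CPM to 70.8, 70.1 and 68.7 CPM with 31% of its exonic bases in an antisense gene. Meg3, a long noncoding RNA, varied within mESC-2i at 235, 190 and 733 CPM, the last in the replicate that stood apart, against 465, 499 and 537 CPM, and was not called. Without that replicate its log2 fold change was 1.25 and it was called higher, as it was with the length and GC offsets (1.26).

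Genes of adhesion held strong rises and strong falls. In the list of cadherins, tight junctions and EMT, the epithelial-mesenchymal transition, 8 of 20 were higher and 10 lower. Cldn6, a tight junction protein at chr17:23679249-23682446, was read at 3.20, 5.62 and 3.85 CPM in mESC-2i and at 277, 282 and 300 CPM in EpiLC (log2 fold change 6.05 ± 0.167 (SE), edgeR adjusted p = 9.72e-10). Esrp1, a regulator of epithelial splicing, rose from 1.11, 0.733 and 0.616 CPM to 85.0, 81.9 and 83.3 CPM. Zeb1, a repressor of epithelial genes, fell from 15.3, 14.5 and 15.6 CPM to 0.650, 0.748 and 0.857 CPM. The cadherins of the switch were less moved, with Cdh2 at a log2 fold change of -2.48 and Cdh1 not called at 595 to 649 CPM and 478 to 511 CPM. Of 7 claudins tested 5 were higher and 1 lower, and that 1, Cldn4, fell from 108, 111 and 85.3 CPM to 60.0, 53.4 and 58.4 CPM. Pcdh1, a protocadherin, rose from 4.31, 2.60 and 2.77 CPM to 116, 112 and 105 CPM.

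More matrix genes were lower than higher. Collagens were lower in 21 of 29 with 4 higher (median -1.55), laminins in 5 of 8 with 2 higher (median -2.72), and genes of the basement membrane and integrins in 11 of 21 with 2 higher. The summed level of the collagens went the other way, from 415.4 to 464.2 CPM in mESC-2i to 529.1 to 565.7 CPM in EpiLC, and Col18a1 made up most of the EpiLC sum. Of 44 collagens counted, 16 held at most 3 counts in every EpiLC library and 9 did so in mESC-2i. Any of the 16 that were tested could be so only through mESC-2i. Lama1, the alpha chain of the embryonic laminin, was read at 204, 181 and 254 CPM in mESC-2i and at 3.12, 4.27 and 2.2 CPM in EpiLC (log2 fold change -6.04 ± 0.211 (SE), edgeR adjusted p = 4.15e-09). Nid1, which links laminin to collagen IV, fell from 233, 210 and 256 CPM to 4.42, 3.21 and 3.18 CPM. Fn1, fibronectin, the protein on which the EpiLC were plated, fell from 1342, 1198 and 1911 CPM to 102, 101 and 97.7 CPM. Against these, Lamb1 rose by 0.82 and Col18a1, a basement membrane collagen, from 194, 195 and 202 CPM to 462, 484 and 450 CPM. Lama5 was read at 225, 209 and 418 CPM and at 231, 240 and 227 CPM and was not called.

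The receptors for the matrix moved apart. Itga3, which pairs with the beta 1 chain to bind laminins, was read at 5.67, 5.94 and 6.08 CPM in mESC-2i and at 131, 130 and 130 CPM in EpiLC (log2 fold change 4.46 ± 0.103 (SE), edgeR adjusted p = 4.14e-10). Itgav, a chain of fibronectin and vitronectin receptors, fell from 58.9, 42.3 and 58.1 CPM to 8.33, 8.65 and 8.69 CPM, and Itgb1 was not called at 162 to 180 CPM and 123 to 141 CPM. Of 18 ephrins and Eph receptors 11 were lower and 2 higher, with log2 fold changes of -5.09 for Epha4 and 4.29 for Epha1. Annexins were lower in 8 of 10 tested and serpins in 11 of 15, the latter with a median of -4.21, or -2.56 with genes at 0 set to their bound. Of 61 serpins counted, 50 held at most 3 counts in every EpiLC library and could be tested only through mESC-2i.

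Of 26 actin and contractility genes 11 were higher and 7 lower, with a median of 0.24 that total-count scaling took to -0.10. The higher ones were led by smooth muscle isoforms. Myl9, a regulatory myosin light chain, rose from 0.123, 0.407 and 0.231 CPM to 44.6, 48.8 and 45.2 CPM, and Tpm2, a tropomyosin, from 3.20, 2.52 and 2.93 CPM to 71.8, 77.0 and 79.2 CPM. Actb, beta actin, rose from 1689, 1786 and 1426 CPM to 3687, 3693 and 3930 CPM. Actn1, an actin crosslinker, and Lmna, the A-type lamin, fell by 1.83 and 1.75. Tubulins were divided, with Tubb4b higher by 1.18 and Tubb2b at a log2 fold change of -2.53, from 375, 437 and 296 CPM to 64.4, 63.5 and 64.0 CPM.

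Genes of protein synthesis and of the mitochondrion rose in large numbers. Of 81 cytosolic ribosomal protein genes 78 were higher and none lower (median 1.37), and of 76 mitochondrial ribosomal protein genes 69 were higher and none lower (median 1.22). The cytosolic set took 5.85%, 6.75% and 4.69% of all counts in mESC-2i and 10.8%, 11.2% and 10.6% in EpiLC. Rpl39l, a paralog of Rpl39 that is known from testis, rose most, from 7.52, 10.6 and 6.93 CPM to 122, 121 and 109 CPM (log2 fold change 3.80 ± 0.152 (SE), edgeR adjusted p = 9.42e-09). Rpl41 went from 510, 611 and 442 CPM to 2259, 2320 and 2281 CPM. Rps2 was not called, at 171 to 292 CPM and 224 to 258 CPM. Ribosomal protein genes have many processed pseudogenes, 1572 processed pseudogenes of all kinds were tested, and 864 of these were higher and 424 lower, so reads shared between parents and copies leave single values uncertain. With length and GC offsets the cytosolic set kept 73 higher and had 1 lower, with a median of 1.13.

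Eef1a1, Eef2 and Pabpc1, abundant mRNAs of elongation and poly-A binding, went in the opposite direction. No list covers these classes, so their other members were not counted. Eef1a1, which brings aminoacyl-tRNA to the ribosome, was read at 4937, 5598 and 3991 CPM in mESC-2i and at 2677, 2713 and 2530 CPM in EpiLC (log2 fold change -0.88 ± 0.139 (SE), edgeR adjusted p = 0.000165). Eef2, the translocase, fell by 0.64 and Pabpc1, the poly-A binding protein, by 1.05. Npm1, a nucleolar chaperone of ribosome assembly, rose from 2061, 2003 and 1680 CPM to 4879, 4624 and 4682 CPM. Of 53 initiation factor genes 23 were higher and 12 lower. Eif5a, a translation factor that carries the residue hypusine, rose from 993, 1141 and 850 CPM to 2966, 3125 and 3104 CPM, and the kinases of the integrated stress response Eif2ak2 (PKR) and Eif2ak3 (PERK) fell by 2.05 and 1.81. Aminoacyl-tRNA synthetases were mostly not called, 14 of 20, with a median of 0.08 that total-count scaling took to -0.26.

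**Figure D3:**
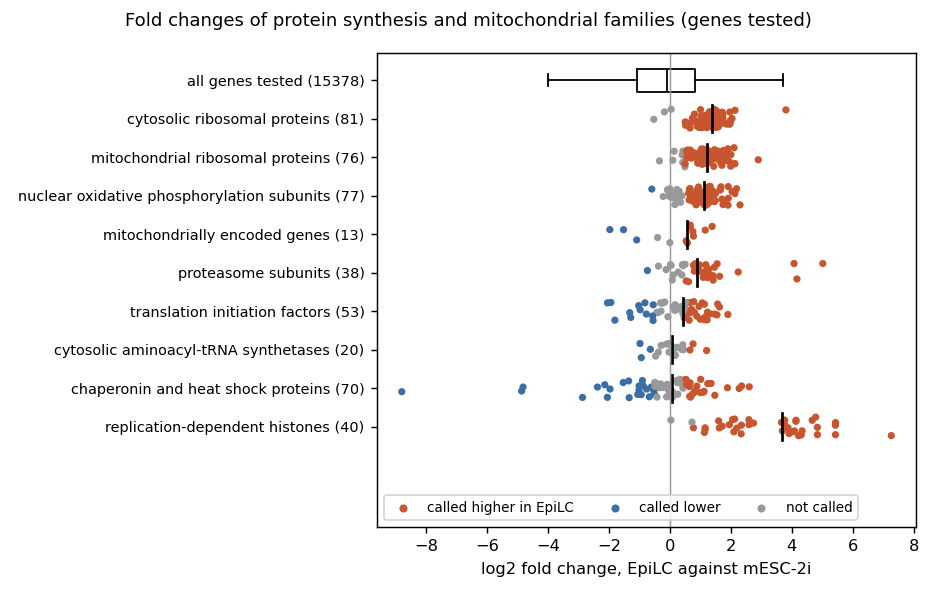
Log2 fold change of every tested gene of each family, with 1 point per gene coloured by its call, black bars at family medians and the number of genes tested in brackets. All genes tested are drawn as a box over the middle quartiles with whiskers to the most distant gene within 1.5 box widths. The medians of the ribosomal sets were 1.37 and 1.22 beside -0.11 for all genes.

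Among protein quality genes, 25 of 38 proteasome subunits were higher and 1 lower (median 0.89). The induced catalytic subunits of the immunoproteasome stood above the rest, with Psmb10 at 7.89, 8.14 and 7.55 CPM in mESC-2i and 246, 275 and 240 CPM in EpiLC (log2 fold change 5.01 ± 0.113 (SE), edgeR adjusted p = 4.14e-10). Psmb8 rose by 4.07 with 15% of its exonic bases in an antisense gene, and Psmd1, a subunit of the regulatory particle, fell by 0.74 and was not called with the offsets. Chaperones were even, 22 higher and 22 lower of 70. The mitochondrial cochaperonin Hspe1 rose from 155, 170 and 121 CPM to 722, 740 and 689 CPM, and Hspb8, a small heat shock protein, fell from 135, 154 and 98.3 CPM to 4.42, 4.49 and 4.78 CPM.

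Of 40 replication-dependent histone genes tested 38 were higher and none lower, with a median of 3.67 (3.23 with genes at 0 set to their bound and 2.63 with length and GC offsets). Their levels were low, with a sum over the family of 28.4 ± 3.52 CPM in mESC-2i and 148.1 ± 18.2 CPM in EpiLC (SD, n = 3). Of 59 counted, 33 held at most 3 counts in every mESC-2i library, and 2 did so in EpiLC. The 33 could pass the filter only through EpiLC, so the count of higher genes and the median were in part set by the filter. These histone mRNAs end in a stem-loop without a poly-A tail and the libraries were poly-A selected, so what share of them was captured was not tested. Many copies are near-identical and overlap other annotated genes, which leaves single members uncertain.

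Genes of MHC class I and antigen processing, which present peptides to T cells, were all called, 14 of 17 higher and 3 lower with a median of 1.65. Bst2, an interferon-induced membrane protein, was read at 11.6, 14.5 and 11.2 CPM in mESC-2i and at 188, 210 and 183 CPM in EpiLC (log2 fold change 3.96 ± 0.127 (SE), edgeR adjusted p = 2.33e-09). Ifitm3, an antiviral membrane protein, rose from 67.4, 70.3 and 50.1 CPM to 141, 152 and 145 CPM. B2m, the light chain without which class I molecules do not reach the surface, fell from 56.1, 55.4 and 43.1 CPM to 17.4, 15.6 and 19 CPM. Ifitm1 fell by 2.27. The letters GAAA, any 2 bases and GAAA again, the core of the interferon-stimulated response element, were sought on both strands of the same promoter windows and were found in 6 of 17 listed genes with a promoter, 35.3%, and in 1079 of all 27025 genes, 3.99%. They were present in 4 of 13 higher genes and 1 of 2 lower genes. The 150 bases before the start of 2 higher genes and of the lower gene B2m are shown from RefSeq, build GRCm38.p6, 5′ to 3′, with the letters in capitals, since the motif stood in promoters of both directions. These genes were chosen after their calls were seen.
Bst2, chr8:71537473-71537622, minus strand: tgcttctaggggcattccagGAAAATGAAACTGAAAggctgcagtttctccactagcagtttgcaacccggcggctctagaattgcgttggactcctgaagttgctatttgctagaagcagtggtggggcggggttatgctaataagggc
Ifitm2, chr7:140955962-140956111, minus strand: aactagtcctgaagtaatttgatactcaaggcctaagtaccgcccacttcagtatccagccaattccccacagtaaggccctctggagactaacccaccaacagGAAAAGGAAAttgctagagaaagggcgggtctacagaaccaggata
B2m, chr2:122147537-122147686, plus strand: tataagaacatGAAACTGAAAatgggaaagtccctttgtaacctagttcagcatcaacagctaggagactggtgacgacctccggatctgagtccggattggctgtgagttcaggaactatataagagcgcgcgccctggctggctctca
In Bst2 a pair of overlapping matches began 130 and 124 bases before the start, in B2m 1 match began 139 bases before it, and in Ifitm2 1 match began 46 bases before it. Ifitm2 had a log2 fold change of 0.66, or -0.13 and no call with the length and GC offsets. A match of letters is a description and not a binding site.

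Energy metabolism changed in direction from enzyme to enzyme. Among 26 genes of glycolysis and lactate handling 10 were higher and 6 lower, with a median of 0.30 that total-count scaling took to -0.03. The glucose transporter Slc2a3 was read at 1517, 1448 and 1549 CPM in mESC-2i and at 53.3, 53 and 51.7 CPM in EpiLC (log2 fold change -4.84 ± 0.108 (SE), edgeR adjusted p = 4.14e-10), while Slc2a1 was not called at 279 to 304 CPM and 292 to 313 CPM. The first kinase of the pathway, Hk1, fell from 184, 184 and 188 CPM to 26.9, 26.8 and 25.6 CPM. The isoforms of phosphofructokinase exchanged, with Pfkl higher, from 114, 119 and 126 CPM to 396, 436 and 399 CPM, and Pfkp lower, from 262, 235 and 392 CPM to 55.5, 54.7 and 59.1 CPM. Slc16a3, the exporter of lactate, rose from 35.4, 40.0 and 54.5 CPM to 607, 628 and 634 CPM. Pkm, with 15% of its exonic bases in another gene, was not called at 1483 to 1662 CPM and 1639 to 1890 CPM. Of 18 hypoxia response genes 6 were higher and 6 lower, and Vegfa and Kdm3a, known targets of HIF, fell by 1.93 and 2.50.

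Oxidative phosphorylation showed a difference between the genomes that encode it. Of 77 nuclear subunits 61 were higher and 1 lower (median 1.11), and with length and GC offsets 44 were higher and none lower (median 0.63). Atp5e, a small subunit of ATP synthase, rose from 35.9, 42.3 and 22.7 CPM to 180, 186 and 129 CPM. The 13 mitochondrially encoded genes held 8 higher and 3 lower with a median of 0.57, but with the offsets none was higher and 5 were lower with a median of -0.24, and the mitochondrial genome took 6.68% ± 1.14 of counts in mESC-2i and 6.33% ± 0.284 in EpiLC (SD, n = 3). Within it mt-Nd5 was read at 3874, 2805 and 5595 CPM in mESC-2i and at 1525, 1238 and 1512 CPM in EpiLC, and mt-Nd4l fell by 1.97, while mt-Nd4 rose by 0.77, from 3635, 3228 and 5585 CPM to 7159, 6896 and 7200 CPM, a call that the offsets ended. All of these encode subunits of complex I. Whether the counts tell neighbouring genes of this genome apart was not tested, so values of single mitochondrial genes are uncertain. Of 22 TCA cycle genes 13 were not called. Idh1 and Idh2 fell by 1.44 and 1.47, Idh2 from 193, 212 and 189 CPM to 66.1, 75 and 73.5 CPM, and Mdh2 rose by 0.85.

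In one-carbon metabolism the genes of betaine and Tyms went in opposite directions. Bhmt, the enzyme that uses betaine to remake methionine, was read at 51.4, 51.4 and 46.1 CPM in mESC-2i and had no read in EpiLC, at least 138-fold lower. Dmgdh, which oxidises the dimethylglycine that Bhmt releases, went from 100, 108 and 108 CPM to 0.390, 0.427 and 0.122 CPM (log2 fold change -8.32 ± 0.199 (SE), edgeR adjusted p = 5.19e-10). Bhmt2 went from 28.8, 30.9 and 36.7 CPM to counts of at most 3 per library, a ratio of 165 with a 95% counting interval of 70.3 to 508. These genes are neighbours in mm10, Bhmt at chr13:93616675-93637961, Bhmt2 at chr13:93655720-93674302 and Dmgdh at chr13:93674433-93752833. The next protein-coding gene beyond Dmgdh, Arsb, a lysosomal sulfatase, went from 4.68, 4.32 and 3.54 CPM to 0.650, 0.855 and 0.490 CPM, and Jmy on the other side was not called, with a log2 fold change of -0.49 (-0.59 and called without replicate 1 of EpiLC, and -0.51 and called without replicate 1 of mESC-2i). Both were named after their values were seen. Bhmt and Bhmt2 are similar in sequence and may share reads. Tyms, thymidylate synthase, rose from 45.7, 52.3 and 41.5 CPM to 215, 218 and 200 CPM. Over the whole list of 23 tested 5 were higher and 8 lower.

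Amino acid and lipid enzymes were likewise mixed. Of 20 serine synthesis genes and targets of ATF4, the factor of the amino acid response, 9 were higher and 6 lower. Phgdh, the first enzyme of serine synthesis, rose from 64.1, 78.6 and 54.2 CPM to 142, 154 and 131 CPM. Asns, asparagine synthetase, fell from 855, 871 and 754 CPM to 243, 241 and 242 CPM, and Cbs and Cth, which turn homocysteine into cysteine, fell by 2.55 and 2.09. In fatty acid metabolism 10 of 23 were lower and 3 higher, and 6 and 5 with the length and GC offsets. Cpt1a, which admits fatty acids to the mitochondrion for oxidation, was read at 159, 152 and 159 CPM in mESC-2i and at 7.29, 8.76 and 9.31 CPM in EpiLC (log2 fold change -4.21 ± 0.115 (SE), edgeR adjusted p = 9.02e-10), and Acadm, a dehydrogenase of the same route, fell by 2.19. Acaca, which makes malonyl-CoA for synthesis, rose from 42.8, 38.6 and 51.1 CPM to 87.3, 79.9 and 79.7 CPM. Insig1 fell by 1.04 among SREBP targets, of which 10 of 25 were higher and 5 lower.

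Of 241 solute carriers 114 were lower and 65 higher, against 37.8% lower and 32.0% higher over all genes, and with the length and GC offsets 100 were lower and 76 higher. Of 28 ABC transporters 19 were lower and 2 higher, and 14 and 3 with the offsets. Slc7a7, a carrier of basic amino acids, rose from 9.24, 8.63 and 9.09 CPM to 215, 216 and 204 CPM (log2 fold change 4.56 ± 0.101 (SE), edgeR adjusted p = 4.14e-10). Slc13a5, a citrate carrier, fell by 6.57 and Slc15a1, a peptide carrier, by 6.46. Abcb1a and Abcb1b, the drug efflux pumps, fell by 2.41 and 2.24, and Abcg2, another efflux pump, rose from 26.5, 26 and 21.5 CPM to 79.5, 83.5 and 78.8 CPM. Carbonic anhydrases held members at both ends of the range. Car4, on the cell surface, rose from 0, 0.326 and 0.154 CPM to 206, 219 and 215 CPM, and Car8, which lacks catalytic activity, fell from 49.9, 53.2 and 48.4 CPM to 0.390, 0.321 and 0.612 CPM.

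Cell cycle genes were higher in S and M phase and lower among the regulators of G1. In the S and M phase list 14 of 25 were higher and 1 lower (median 0.52). Cdk1 rose from 132, 140 and 105 CPM to 354, 372 and 338 CPM. Mki67, the proliferation marker, was the lower one, with a log2 fold change of -0.55, at 138, 108 and 176 CPM against 101, 97.7 and 91.2 CPM, and was not called with the length and GC offsets (0.03), without replicate 3 of mESC-2i (-0.34) or without replicate 3 of EpiLC (-0.50). Of 21 G1 cyclins and inhibitors 11 were lower and 4 higher. Ccnd2 went from 52.6, 55.5 and 53.2 CPM to 2.21, 1.92 and 1.1 CPM, and Ccne1, the cyclin of S phase entry, from 59.9, 63.7 and 56.9 CPM to 277, 280 and 252 CPM. Cdkn1a (p21) fell from 330, 360 and 316 CPM to 48.0, 43.7 and 49.7 CPM (log2 fold change -2.83 ± 0.102 (SE), edgeR adjusted p = 4.89e-09).

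Targets of p53 were lower in 11 of 19 and higher in 2, with Trp53 itself not called at 317 to 350 CPM and 332 to 356 CPM. With the length and GC offsets 9 were lower and 3 higher, and the median went from -0.59 to -0.35. The 2 targets called higher in the fit on counts act in apoptosis. Pmaip1 (Noxa) rose from 4.44, 5.29 and 5.39 CPM to 39.3, 38.2 and 46.2 CPM, and Bax by 1.51 with 12% of its exonic bases shared with another gene. In the BCL2 family 7 of 15 were higher and 1 lower, with a median of 0.24 that total-count scaling took to -0.10. Bcl2l11 (Bim), which promotes cell death, rose from 12.4, 10.7 and 13.8 CPM to 42.5, 40.0 and 42.7 CPM, and Mcl1, which opposes it, was not called with a log2 fold change of 0.24. Myc rose from 9, 8.06 and 7.16 CPM to 50.0, 51.0 and 50.9 CPM while Mycn was not called at 107 to 114 CPM and 108 to 126 CPM.

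The fold changes depended on gene length. Over 13037 protein-coding genes tested, Spearman's rho between exonic length and log2 fold change was -0.30, a correlation across genes, which are not independent replicates. The shortest eighth of the genes, 204 to 1938 bp, had a median log2 fold change of 0.89 with 59.9% of them called higher. The longest eighth, from 9103 bp, had a median of -0.73 with 58.5% called lower and 11.5% higher. The medians fell at each step between these eighths, through 0.26, 0.01, -0.12, -0.33, -0.41 and -0.53.

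Replicates showed a dependence on length too. Between mESC-2i libraries rho was -0.362 for replicate 2 minus 1, 0.337 for 3 minus 1 and 0.473 for 3 minus 2, as strong in size as the -0.237 to -0.352 over the 9 pairs of an EpiLC with a mESC-2i library, while between EpiLC libraries it was -0.116 to 0.148. In log2 units the trend between the states was the larger. The gap between the median of the shortest and that of the longest eighth was 1.20 to 2.00 on the log2 scale over those 9 pairs. Between EpiLC libraries it was 0.0304 to 0.121 in size. Between mESC-2i libraries it was 0.275, 0.403 and 0.671, the last for replicates 2 and 3, and without replicate 3 of mESC-2i the rho was -0.268. Genes with higher expression showed more of it, with a rho of -0.185 in the 3260 genes with the lowest mean CPM and -0.468 in the 3259 with the highest. It did not rest on the short genes of the ribosome, oxidative phosphorylation and proteasome families, without which rho was -0.281, and it was -0.128 among the 4143 genes not called. The source of the trend was not tested.

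**Figure D4:**
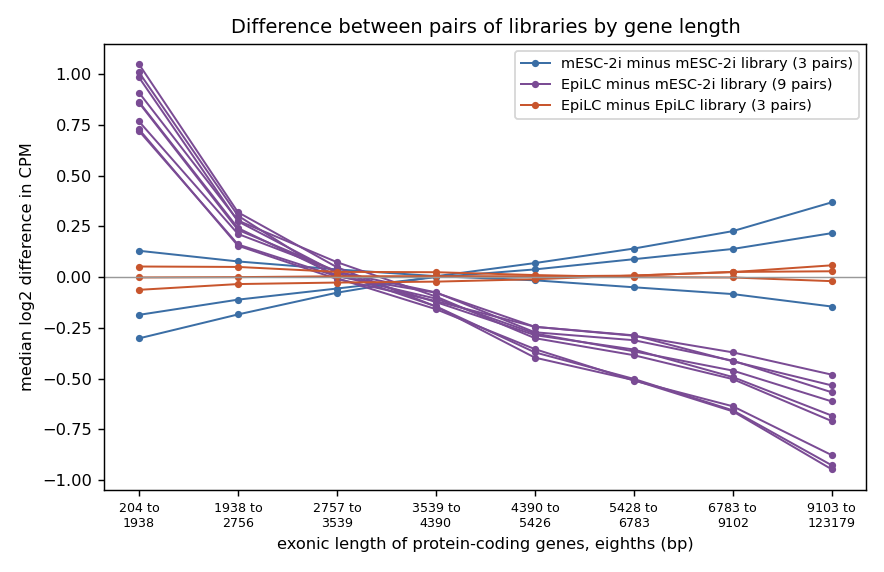
Median log2 difference in CPM between pairs of libraries over eighths of the protein-coding genes by exonic length in bp. The 9 lines of EpiLC minus mESC-2i fall from left to right with gaps of 1.20 to 2.00, the 3 EpiLC pairs stay near 0 with gaps of at most 0.121, and the mESC-2i pairs reach 0.671.

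Offsets were fitted to remove the dependence on length and GC content in each library. They reduced it and left part of it, with a rho of -0.0889 and a median of 0.40 in the shortest eighth, 45.3% of it higher, against -0.13 in the longest with 26.7% higher. With them 10070 genes were called, 4776 higher (31.1%) and 5294 lower (34.4%). Of the calls 8867 were the same in direction in both fits and 9 were opposite. Those 9 were all gene models named Gm, Gm13320 with a log2 fold change of 1.00 and of -0.75 with the offsets the largest of them. The median of nuclear oxidative phosphorylation subunits went from 1.11 to 0.63, that of replication-dependent histones from 3.67 to 2.63 and that of claudins from 3.20 to 2.66. The enzymes of H3K4 and H3K9 methylation went from -0.40 to 0.34. The median changed sign in 10 of the 82 lists and families, of which the mitochondrially encoded genes alone had a median over 0.5 in size. Others moved less. HOX genes had -5.19 and -5.35, T-box factors -4.07 and -4.10, laminins -2.72 and -2.37, and MHC class I genes 1.65 and 1.80. Kinesins, motor proteins encoded by long genes, went from 1 higher and 18 lower of 31 to 5 higher and 11 lower. Zinc finger proteins named Zfp, many of them repressors of transposons, went from 35 higher and 172 lower of 353 to 53 higher and 150 lower.

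**Figure D5:**
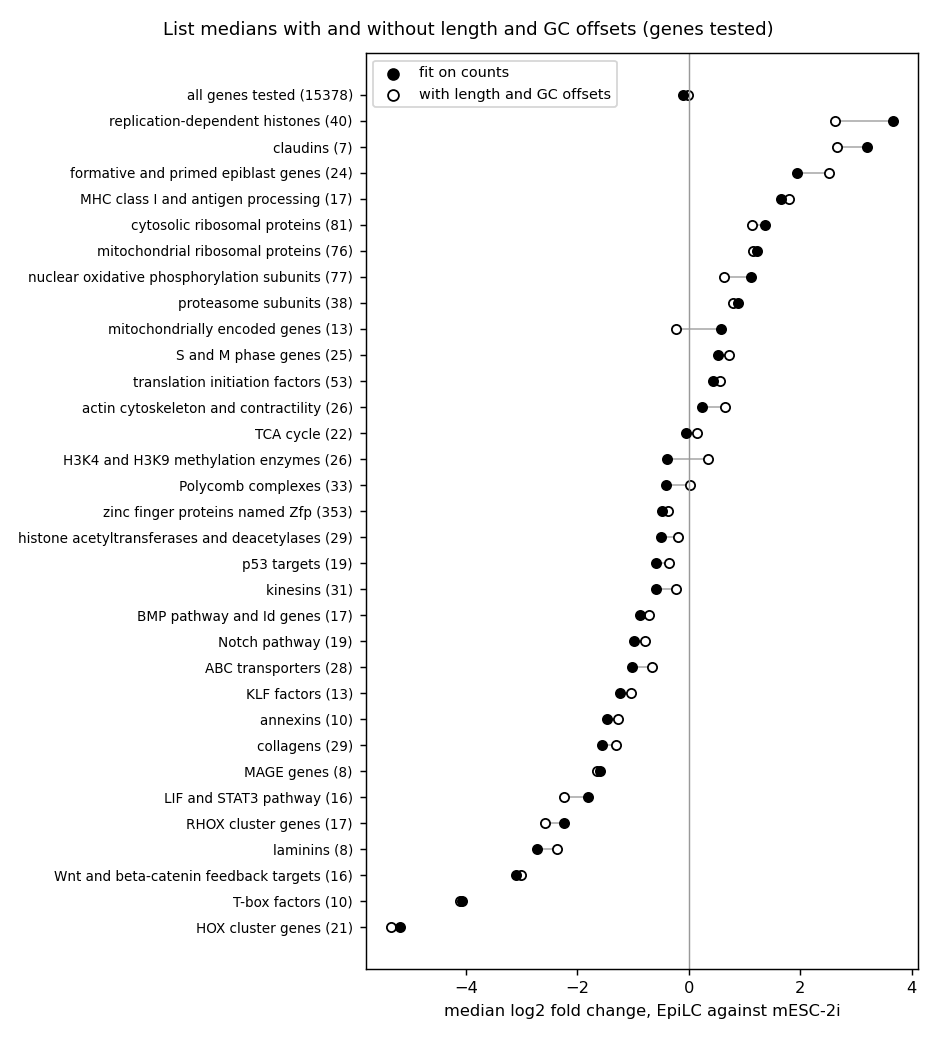
Median log2 fold change of selected lists over the genes tested, whose number is in brackets, from the fit on counts (filled) and from the fit with length and GC offsets (open). The mitochondrially encoded genes cross 0, from 0.57 to -0.24, as do the enzymes of H3K4 and H3K9 methylation, from -0.40 to 0.34, and the Polycomb genes, from -0.41 to 0.02, while the HOX median stays at -5.19 and -5.35.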

How the data were processed

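Counts were measured in 3 mESC-2i and 3 EpiLC libraries of the E14 line. Per the labels, the authors extracted total RNA, selected poly-A RNA, built TruSeq v2 libraries and sequenced single 50 bp reads. They trimmed reads with Trim Galore 0.6.6, aligned them to mm10 with HISAT2 2.2.1 and counted genes with featureCounts of Subread 2.0.1. The deposited tables hold raw counts, 1 per gene and library. The annotation release, whether strand was used and how multi-mapping reads were handled are not given in the sources used here. Totals of 7187576 to 11523850 counts limit the precision of genes near the floor of 3 counts per library, and counting intervals (95%, exact binomial) cover counting error only.

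From these counts, genes were filtered with filterByExpr and tested with edgeR 4.0.16 in R 4.3.3 (TMM scaling, quasi-likelihood F-test, Benjamini-Hochberg adjustment over 15378 genes, prior count 2 for log2 CPM). A call needed an adjusted p under 0.05 and a log2 fold change over 0.5 in size. CPM are TMM-scaled. Fold changes against a group at 0 are bounds from 3 counts per library. Symbols, exonic lengths and overlaps came from GENCODE M21, which matched 95.1% of gene IDs. Promoters came from RefSeq (GRCm38.p6). Length and GC offsets were natural splines with 5 degrees of freedom in each library. Simulations in which 200 genes differed were used to check the scripts. Without a length dependence the fit on counts called 217 genes, and 9.22% of these calls were false. With a simulated length dependence it called 2968 genes, 93.5% of them falsely. The fit with length and GC offsets then called 215, 7.44% of them falsely. How far this bears on the calls reported here, which come from the fit on counts, was not tested. The 42 gene lists and 40 symbol families, their members and the tests were chosen with earlier results of these data known, so no list was tested as a set. Named genes were, per list, up to 3 called in each direction by fold with a mean of at least 10 CPM in the higher group and the highest one not called, the 15 largest rises and falls by fold and the 10 by CPM, and the label markers, with others named as chosen afterwards. Alternatives covered scaling (RLE, upper quartile, total counts, and without ribosomal and mitochondrial genes), filters, DESeq2 1.42.0, the classic exact test, all 9 libraries, a replicate block, the offsets, thresholds and leaving out each library. The mESC-ser libraries of the series entered only the fit of all 9. Results for 4 genes that this rule names are not reported here.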

Additional observations from a re-analysis of the deposited data

How the results depend on the processing

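The count of calls stayed within 1.5 times the 10732 reported under every alternative, from 7455 with a log2 threshold of 1 (3317 higher and 4138 lower) to 12476 without a filter, with 10454 by DESeq2, 10765 by the exact test, 11240 with all 9 libraries and 10608 to 11059 when leaving out each library (higher 4850 to 5261, lower 5685 to 5907). With the 10 count filter 8385 were called. The rho with length was -0.389 over genes of at least 10 CPM, which leaves out the low genes with the weaker trend, -0.0889 with the offsets, which were fitted to length, and -0.268 to -0.323 when leaving out each library. Replicates with the same number had correlations of deviations of 0.0153, 0.132 and 0.122, so the numbers were not taken as a pairing, although every library correlated best with its own number. With the replicate block 10759 genes were called (4951 higher and 5808 lower), and 10086 with the block and the offsets. List medians over 0.5 in size turned sign with the filter of 10 counts in every library for the 2-cell-like genes (-0.126), primordial germ cell markers (0.129) and fibroblast markers (0.0826), since only the better expressed members remained, and with the offsets for mitochondrially encoded genes (-0.238, and -0.215 with the block). With the offsets 9 smaller medians changed sign as well. Among named genes Gm13320 turned with the offsets to -0.75, Ifitm2 to -0.13 and Mki67 to 0.0309, and with the block and offsets to -0.75, -0.13 and 0.0405. Precision is limited for genes under the floor of 3 counts per library, where only bounds or counting intervals are given.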

Other observations

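Among the genes with the largest rises, Wt1, the Wilms tumour transcription factor of kidney and gonad, was read at 0.246, 0.163 and 0.0770 CPM in mESC-2i and at 40.6, 34.5 and 40.6 CPM in EpiLC, a ratio of 256 with a 95% counting interval of 109 to 790. Slc23a1, which imports vitamin C, rose from 0.123, 0 and 0.308 CPM to 24.7, 28.0 and 27.4 CPM, and Jph4, a junctophilin of excitable cells, from 1.11, 0.488 and 0.847 CPM to 114, 116 and 122 CPM. Plac8 had no read in mESC-2i and 13.5, 13.6 and 12.0 CPM in EpiLC, at least 46.3-fold higher. Among the largest falls, Aqp3, a channel for water and glycerol, went from 174, 187 and 155 CPM to 0.650, 0 and 0.122 CPM, and Trpm1, a cation channel, from 191, 191 and 182 CPM to 0.130, 0.427 and 0 CPM. Tlx2, Tfap2b and Ntrk3, genes of the nervous system and neural crest, had no read in EpiLC and were at least 45.8-fold, 28.6-fold and 24.7-fold lower. Ckb, brain creatine kinase, fell from 776, 830 and 693 CPM to 30.8, 31.5 and 28.6 CPM.

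Other families held members in both directions, as did all genes tested, of which 32.0% were higher and 37.8% lower. FOX factors had 8 higher and 13 lower of 29, POU factors 2 and 5 of 9, aldehyde dehydrogenases 3 and 9 of 17, potassium channels 9 and 11 of 31, glutathione S-transferases 9 and 6 of 19, and semaphorins with plexins 9 and 10 of 24, the last with a median of 0.23 that total-count scaling took to -0.11. Foxn4 rose from 0.863, 0.326 and 0.462 CPM to 15.5, 16.7 and 12.2 CPM, and Kcnk1, a potassium leak channel, from 7.89, 6.59 and 6.01 CPM to 110, 106 and 99.5 CPM. Gstt1 and Gstt2 rose by 3.69 and 3.61 on the log2 scale. Chromosomes differed little, with medians of protein-coding genes from -0.41 on chromosome 18 to 0.03 on chromosome 14 among the nuclear ones, and -0.10 and 0.19 for these with the length and GC offsets.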
